A study of Mus musculus with 6 samples.

Results

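Terminal erythroid maturation factors are genes that act while an erythroblast, the nucleated precursor of a red cell, stops dividing, condenses and expels its nucleus and clears its organelles. The 9 genes named for this group were Tent5c, Trim10, Trim58, Xpo7, Hemgn, Alox15, Ypel4, Foxo3 and Nr3c1, and they were taken by gene symbol, with every probe set annotated to that symbol alone. Of these, 7 were represented by 12 of the 22626 probe sets tested, and Trim58 and Ypel4 were not analysed here. Messenger RNA was measured with 1 Affymetrix array per sample in CD71 positive erythroblasts sorted from FVB/N mouse bone marrow, in 3 wild type samples and 3 samples from mice that express an RPS19 transgene with the change R62W. RPS19 belongs to the small ribosomal subunit and is often mutated in Diamond-Blackfan anaemia, in which the marrow makes too few red cells from birth, and CD71 is the transferrin receptor. The labels used here name neither the age of the mice, nor the promoter that drives the transgene, nor whether each sample was a separate animal. The p-values therefore rest on the spread between samples that may be technical replicates. By Xist and the Y-linked Eif2s3y (values below), mutant replicate 3 differed in sex from the other samples and was not a technical replicate of them.

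In terminal maturation, erythroblasts divide a few more times while GATA1 and KLF1 drive red cell genes, and the nucleus shrinks as nuclear proteins leave it. Glucocorticoids, acting through the receptor that Nr3c1 encodes, favour further division of erythroid progenitors and delay maturation, whereas FOXO3 supports the later steps, among them antioxidant defence and removal of mitochondria. The products of Trim10 and Trim58 belong to the tripartite motif family of ubiquitin ligases, that of Xpo7 is a nuclear export receptor, and that of Tent5c lengthens poly(A) tails.

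Promoter sequences are shown for Tent5c, the gene of the group that rose in the mutant, and for Trim10 and Hemgn, whose values are set against those of Tent5c below. Each runs from 250 bases before to 50 bases after the transcription start, comes from RefSeq (build GRCm38.p6) and is written 5′ to 3′ on the gene's strand. Capitals mark matches on either strand to a GATA word (AGATAA or TGATAA, or else AGATAG or TGATAG) or to a CACC word (CCACACCC, CCACGCCC, CCCCACCC or CCCCGCCC), the kinds of sequence that GATA1 and KLF1 are known to bind.
Tent5c: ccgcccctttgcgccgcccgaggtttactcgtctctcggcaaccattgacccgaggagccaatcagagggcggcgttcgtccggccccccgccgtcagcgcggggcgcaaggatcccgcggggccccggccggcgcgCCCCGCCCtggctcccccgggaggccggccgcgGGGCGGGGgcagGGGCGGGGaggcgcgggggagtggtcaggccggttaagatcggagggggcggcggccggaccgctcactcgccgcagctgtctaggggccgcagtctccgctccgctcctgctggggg
Trim10: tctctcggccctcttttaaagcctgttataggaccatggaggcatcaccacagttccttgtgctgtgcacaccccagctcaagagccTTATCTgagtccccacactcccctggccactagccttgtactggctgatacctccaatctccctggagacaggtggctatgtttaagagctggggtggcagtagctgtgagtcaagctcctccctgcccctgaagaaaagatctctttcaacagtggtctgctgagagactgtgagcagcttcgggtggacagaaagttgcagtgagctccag
Hemgn: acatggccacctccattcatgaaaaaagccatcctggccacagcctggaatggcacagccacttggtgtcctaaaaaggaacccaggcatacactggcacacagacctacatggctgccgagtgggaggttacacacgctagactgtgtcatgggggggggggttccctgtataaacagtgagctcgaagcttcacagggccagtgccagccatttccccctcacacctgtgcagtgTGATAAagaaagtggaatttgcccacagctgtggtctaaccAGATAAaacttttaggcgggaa
The Tent5c sequence lies at chr3:100489143-100489442 on the minus strand, the Trim10 sequence at chr17:36869324-36869623 on the plus strand and the Hemgn sequence at chr4:46404134-46404433 on the minus strand. The Hemgn window holds 2 GATA words, at 13 bases before and 28 bases after the start, and the Trim10 window holds 1, at 163 bases before the start and on the opposite strand. The Tent5c window holds 0 GATA words and 3 CACC words, and 78% of its bases are G or C, against a median of 52.7% over the 32851 promoters of the table. A GATA word occurs in 29.8% and a CACC word in 29.7% of those promoters, shares not matched for G and C content. The window of Foxo3, which was not called, is not shown but also holds 0 GATA words, with 2 CACC words and 75% G or C. These matches describe the letters of the windows and are no measurement of binding. Promoters were examined for 4 of the 7 measured genes, and that of Nr3c1 was left out.

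On these arrays the median log2 value ran from 5.35 to 5.41. The mutant arrays differed more among themselves (a pair of arrays had log2 differences with an SD of 0.34 to 0.50 across probe sets) than the wild type arrays did (0.14 to 0.19). Polyadenylated control transcripts added to the RNA read 8.74 to 8.77 in wild type and 11.58 to 13.47 in mutant samples, lowest of the mutant arrays on replicate 1. The 3′ minus 5′ difference of the Gapdh control was -0.087 to -0.049 in wild type and 0.25 to 0.31 in mutant samples. That of actin was 1.26 to 1.37 and 1.58 to 1.88, highest on mutant replicate 1, and that of the transferrin receptor overlapped, at 1.67 to 1.78 and 1.63 to 1.88. The added transcripts and the Gapdh and actin differences thus separated the groups without overlap. Their part in the differences below was not tested and cannot be told apart from that of the transgene. Mutant replicate 3 also read 5.78 for Xist and 8.34 for the Y-linked Eif2s3y, against 11.38 to 12.07 and 2.23 to 2.45 on the other 5 arrays. Of the 15 erythroid marker probe sets the brightest of several genes were high, among them Klf1 (11.64 in wild type), Gata1 (9.32), Alas2 (10.18) and the transferrin receptor gene Tfrc (12.14 at its brightest probe set). The only probe set annotated to the globin gene Hba-a1 alone read 2.87 to 3.27 over the 6 arrays. Probe sets annotated to several genes were not read for the markers, so this value is no measure of globin transcripts as a whole. Transcripts of neutrophil granules were present too, with Mpo at 13.12 and Elane at 12.11 in wild type samples.

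**Figure D1:**
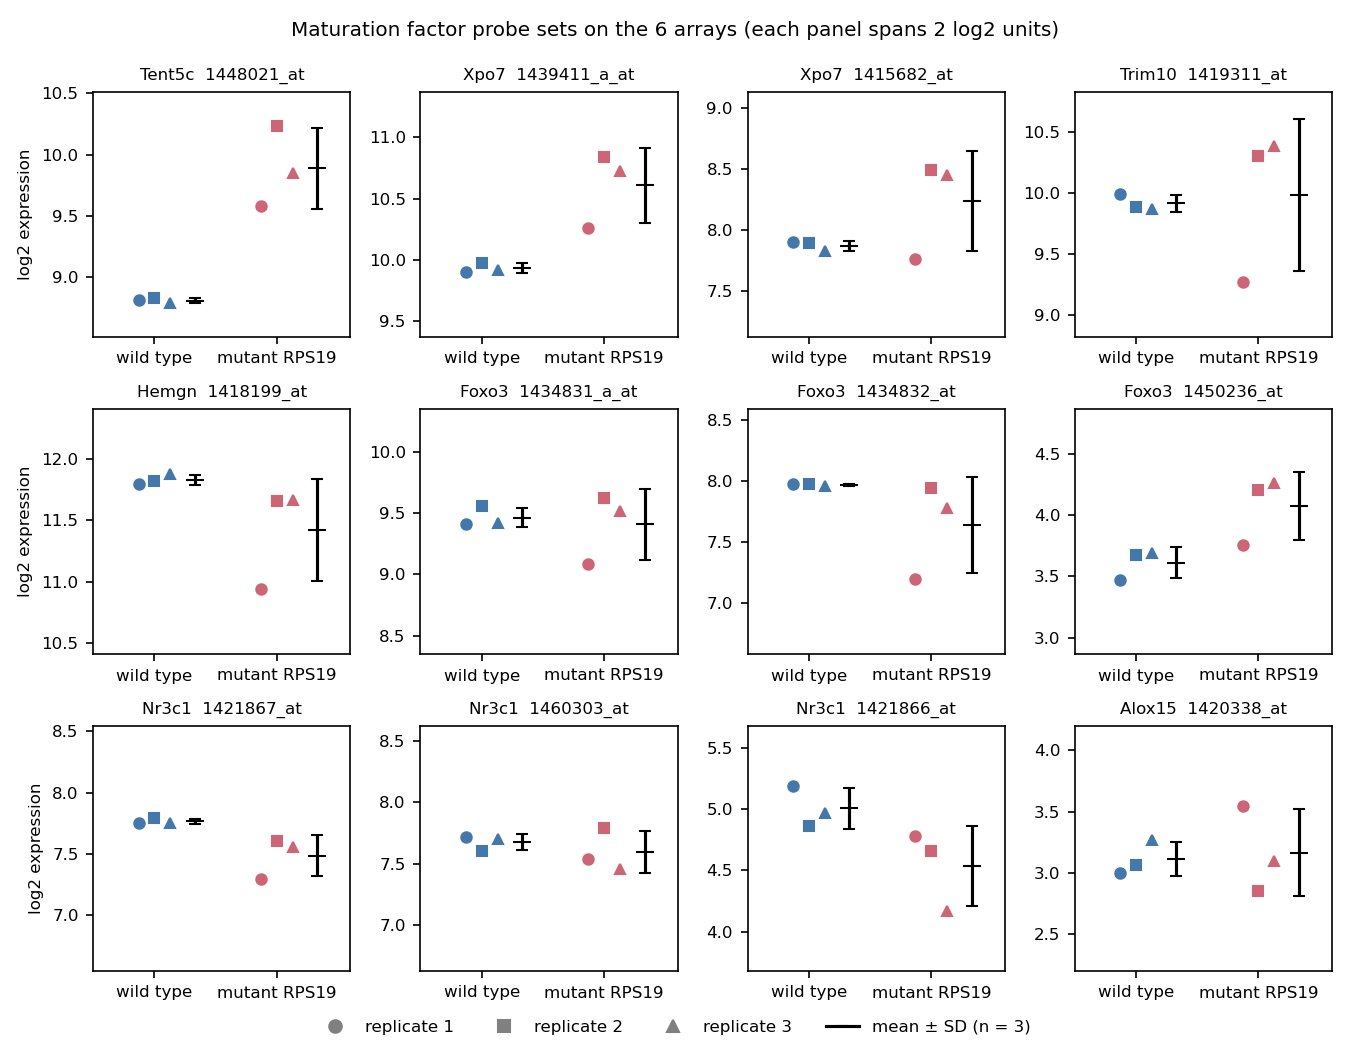
Log2 expression (vertical axes, each panel spanning 2 log2 units) of the 12 probe sets on the 3 wild type (blue) and 3 mutant RPS19 (red) arrays. Symbols give the replicate number and black bars the mean ± SD. Tent5c lies at 9.58 to 10.24 on the mutant arrays and at 8.78 to 8.83 on the wild type arrays, and mutant replicate 1 is apart from the other mutant arrays for Trim10 and Hemgn.

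Of the 12 probe sets of maturation factors, 1 differed between mutant and wild type samples, that of Tent5c, which was 2.11-fold higher in the mutant. The share of all 22626 probe sets that changed was 2.33%, with 213 higher (0.941%) and 315 lower (1.39%) in the mutant (limma, adjusted p under 0.05), so that 1 of 12 is a small count to set against the background. Of the other 11 probe sets, 5 had a higher and 6 a lower mutant mean, and the median log2 difference over all 12 was -0.0011, against -0.013 over all probe sets tested. At an unadjusted p under 0.05 there were 5 of the 12, against 19.1% of all probe sets. Wild type and mutant values did not overlap for 7 of the 12, 3 higher and 4 lower, against 26.1% of all probe sets. Mean levels reached at least the median of all probe sets for 9 of the 12, and the exceptions were those of Alox15, a Foxo3 probe set and an Nr3c1 probe set.

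Tent5c encodes a poly(A) polymerase that acts on messenger RNA in the cytoplasm. Its single probe set read 8.81, 8.83 and 8.78 in wild type replicates 1, 2 and 3 and 9.58, 10.24 and 9.85 in the mutant replicates. All mutant values were above all wild type values, and the lowest mutant array was replicate 1. The log2 difference was 1.08 ± 0.16 (SE, 95% confidence interval 0.70 to 1.46, n = 3 each, adjusted p = 0.026, limma), and 0.778% of all probe sets had a larger absolute difference. The wild type values were close (SD 0.021) and the mutant values less so (SD 0.33). The log2 difference was 1.23 without mutant replicate 1 (adjusted p = 0.0034, limma), 0.91 without mutant replicate 2 (0.036) and 1.10 without mutant replicate 3 (0.035). Leaving out wild type replicate 1, 2 or 3 left it at 1.08, 1.09 and 1.07 but ended the call (adjusted p = 0.16, 0.16 and 0.14, limma), as did the fit with 1 probe set per gene (adjusted p = 0.053). Without wild type replicate 1, 2 or 3 the calls over all probe sets also fell, from 528 to 39, 36 and 48.

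The probe sets whose 6 values lay nearest to those of Tent5c, each taken relative to its own wild type mean, were 3 of Bpgm, 1 of Abca7 and 1 of Fam220a. Bpgm encodes the red cell enzyme that makes 2,3-bisphosphoglycerate, Abca7 a transporter of the ATP-binding cassette family. The root mean square distance over the 6 arrays was 0.058 for the nearest Bpgm probe set and 0.099 for the farthest of the 5. On that nearest Bpgm probe set the mutant arrays read 9.36, 10.08 and 9.66 for replicates 1, 2 and 3 against 8.49 to 8.57 in wild type. The order of the mutant arrays was that of Tent5c. Abca7 read 7.64, 8.33 and 8.09 in the mutant replicates and 6.80 to 7.08 in wild type, and Fam220a 7.65, 8.05 and 7.68 against 6.62 to 6.74. This likeness is a description of 6 arrays, chosen from all probe sets with 1 gene symbol.

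**Figure D2:**
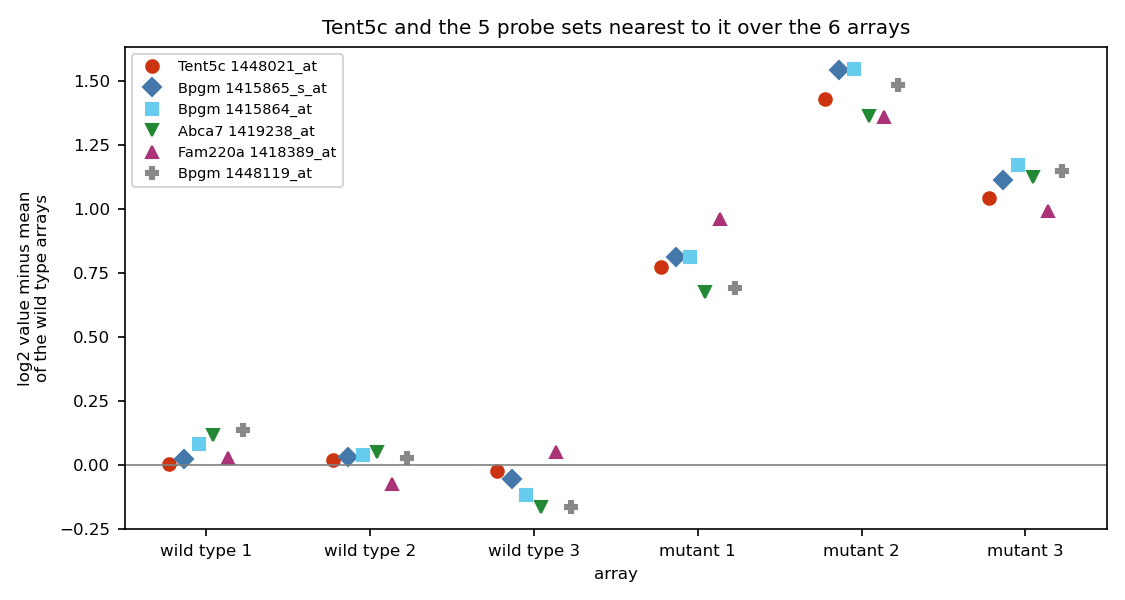
Log2 value minus the mean of the wild type arrays (vertical axis) on each of the 6 arrays for Tent5c and its 5 nearest probe sets, 3 of them of Bpgm. On mutant replicate 1 Tent5c is 0.77, on replicate 2 1.43 and on replicate 3 1.04 above the wild type mean, and the other probe sets have the same order of mutant arrays.

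Xpo7 encodes exportin 7, which carries proteins, histones among them, out of the nucleus of maturing erythroblasts. Its brighter probe set (1439411_a_at) read 9.90, 9.98 and 9.92 in wild type replicates and 10.26, 10.84 and 10.72 in the mutant replicates. The groups did not overlap, and replicate 1 was again the lowest mutant array. The log2 difference was 0.68 ± 0.16 (SE, 95% confidence interval 0.31 to 1.04, n = 3 each) and did not pass (adjusted p = 0.073, limma). The dimmer probe set (1415682_at) read 7.90, 7.89 and 7.83 in wild type and 7.77, 8.49 and 8.45 in the mutant replicates, so that mutant replicate 1 lay below the wild type values and the other mutant arrays above them. Its difference was 0.36 ± 0.19 (SE, 95% confidence interval -0.09 to 0.81, adjusted p = 0.36, limma). Both probe sets passed without mutant replicate 1, at 0.85 (adjusted p = 0.0040) and 0.60 (adjusted p = 0.0096, limma), in a fit that called 11.2% of all probe sets.

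Trim10 encodes a RING-type ubiquitin ligase needed for erythroblast maturation in cultured cells. The log2 values were 9.99, 9.89 and 9.87 in wild type and 9.27, 10.30 and 10.38 in the mutant replicates. The mutant arrays lay on both sides of the wild type arrays, with replicate 1 lowest and the others highest. The difference was 0.07 ± 0.28 (SE, 95% confidence interval -0.58 to 0.72, adjusted p = 0.93, limma), and the mutant SD of 0.62 was exceeded by 4.11% of all probe sets. Without mutant replicate 1 Trim10 passed at 0.43 (adjusted p = 0.031, limma), and without mutant replicate 2 or 3 the difference turned to -0.09 and -0.13 (adjusted p = 0.92 and 0.81).

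Hemgn encodes hemogen, a nuclear protein that works with GATA1 in red cell gene expression. It read 11.80, 11.82 and 11.88 in wild type and 10.94, 11.66 and 11.67 in the mutant replicates. All mutant values were below all wild type values, by 0.89 on replicate 1 and by 0.17 and 0.16 on the others relative to the wild type mean. The log2 difference of -0.41 ± 0.20 (SE, 95% confidence interval -0.87 to 0.05) did not pass (adjusted p = 0.32, limma), and the value was -0.17 when mutant replicate 1 was left out (adjusted p = 0.27). Trim10 and Tent5c thus read above wild type on mutant replicates 2 and 3, where Hemgn read slightly below.

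Foxo3 was read by 3 probe sets, which did not move alike. The brightest (1434831_a_at) read 9.41 to 9.56 in wild type and 9.08, 9.62 and 9.52 in the mutant replicates, and the groups overlapped (-0.06 ± 0.15, SE, 95% confidence interval -0.41 to 0.30). The second (1434832_at) read 7.96 to 7.98 in wild type and 7.20, 7.95 and 7.78 in the mutant replicates, all below wild type (-0.33 ± 0.19, SE). The dimmest (1450236_at), below the median level of all probe sets, read 3.47, 3.68 and 3.69 in wild type and 3.76, 4.21 and 4.26 in the mutant replicates, all above wild type (0.46 ± 0.15, SE). None of the 3 passed with all arrays (adjusted p = 0.89, 0.40 and 0.16, limma). The dimmest passed without mutant replicate 1, at 0.62 (adjusted p = 0.014), while the brightest stood at 0.11 (adjusted p = 0.53). No single direction for Foxo3 can be read from these probe sets.

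Nr3c1, the gene of the glucocorticoid receptor, had a lower mutant mean at each of its 3 probe sets, and none passed. Probe set 1421867_at read 7.75, 7.79 and 7.75 in wild type and 7.30, 7.60 and 7.56 in the mutant replicates, without overlap (-0.28 ± 0.11, SE, 95% confidence interval -0.53 to -0.02, adjusted p = 0.22, limma). The similarly bright 1460303_at read 7.60 to 7.72 in wild type and 7.54, 7.79 and 7.46 in the mutant replicates, with overlap (-0.08 ± 0.11, SE, adjusted p = 0.76). The dim 1421866_at read 4.86 to 5.19 in wild type and 4.78, 4.66 and 4.17 in the mutant replicates, without overlap (-0.47 ± 0.18, SE, adjusted p = 0.21). Both 1460303_at and 1421866_at had their lowest value on mutant replicate 3, and 1421867_at on replicate 1.

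Alox15 encodes the lipoxygenase of reticulocytes, which oxidises membrane lipids of mitochondria late in maturation. It read 3.002, 3.07 and 3.27 in wild type and 3.55, 2.85 and 3.10 in the mutant replicates, a level below that of 83.2% of all probe sets. The groups overlapped (0.05 ± 0.18, SE, 95% confidence interval -0.37 to 0.48, adjusted p = 0.91, limma). The highest value was that of mutant replicate 1. Eosinophils can express Alox15, and of 6 eosinophil probe sets 4 (Prg2, Prg3, Epx and Siglecf) had their highest value of all arrays on mutant replicate 1 and 2 (Ccr3 and Il5ra) their lowest. Prg2, of eosinophil granules, read 9.58 there against a wild type mean of 7.80, and Ccr3, an eosinophil chemokine receptor, 2.53 against 2.97. Mutant replicate 1 was also the highest array for 11 of 11 neutrophil, 9 of 13 early progenitor and 6 of 17 macrophage probe sets. It was the highest for 0 of 15 erythroid and 0 of 13 B cell probe sets. The share over all probe sets was not computed. The part of eosinophils in the values of Alox15 was not tested. Values this low may lie at the array's background, for which the table gives no measure.

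**Figure D3:**
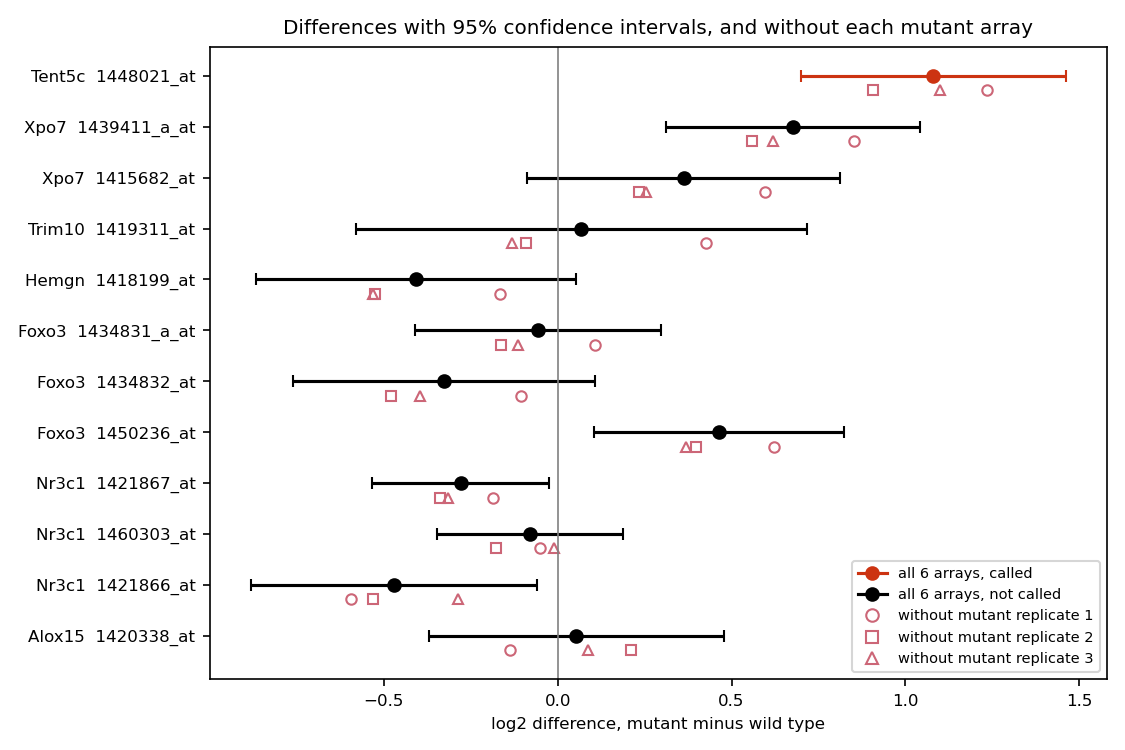
Log2 difference, mutant minus wild type (horizontal axis), of the 12 probe sets with 95% confidence intervals from the fit, and the difference when mutant replicate 1 (circles), 2 (squares) or 3 (triangles) is left out. The interval of Tent5c runs from 0.70 to 1.46, and the difference of Trim10 lies at 0.43 without replicate 1 and below 0 without either other mutant array.

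The mutant arrays differed from each other on the maturation factors. The SD was larger in mutant than in wild type samples for 12 of 12 probe sets, as it was for 76.7% of all probe sets. Mutant replicate 1 was the lowest of the 3 mutant arrays for 9 of 12, against 42.1% of all probe sets. The median of the 12 probe sets relative to wild type was -0.18 on mutant replicate 1, 0.14 on replicate 2 and 0.02 on replicate 3. Without mutant replicate 1, 5 of the 12 were called, all higher (Tent5c, both of Xpo7, Trim10 and the dimmest of Foxo3), against 5.98% of all probe sets called higher in that fit.

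Transcripts of other cells moved with the same arrays. The 11 neutrophil probe sets had a mean level of 9.39 to 9.50 in wild type and 8.58 to 10.22 in mutant samples, with a median of 0.70 relative to wild type on mutant replicate 1 and -0.34 and -0.80 on replicates 2 and 3. The 15 erythroid marker probe sets had a mean level of 8.76 to 8.83 in wild type and 8.09 to 8.75 in mutant samples, lowest on replicate 1. Of these 15, 2 fell and 0 rose, against 2.33% of all probe sets called. They were 1 of the 3 probe sets of Tfrc, the gene of the sort marker CD71, at -1.10 ± 0.10 (SE, adjusted p = 0.0039, limma), and 1 of the 3 of Slc4a1, the gene of the band 3 anion exchanger, at -1.74 ± 0.27 (adjusted p = 0.028). The other probe sets of Tfrc differed by -0.62 and -0.34 (adjusted p = 0.14 and 0.29, limma) and those of Slc4a1 by 0.09 and -0.03 (adjusted p = 0.74 and 0.96). The Tfrc call was lost without wild type replicate 1 or 2 (adjusted p = 0.051 and 0.056, limma) and that of Slc4a1 without any 1 wild type array (0.14 to 0.16). Most calls over all probe sets were likewise lost without a wild type array. For 6 eosinophil probe sets the range was 4.66 to 4.80 and 4.22 to 5.55, and for 8 megakaryocyte probe sets 5.00 to 5.04 and 5.27 to 5.81, each highest on mutant replicate 1. Of the 8, the single probe set of Vwf, the von Willebrand factor gene, rose by 1.48 ± 0.19 (SE, adjusted p = 0.015, limma), a call lost without any 1 wild type array (0.10 to 0.12) or mutant replicate 2 (0.053). For 13 B cell probe sets it was 5.48 to 5.52 in wild type and 5.57 to 7.35 in mutant samples, lowest of the mutant arrays on replicate 1. Their median relative to wild type was 0.0019 on mutant replicate 1, 2.06 on replicate 2 and 0.88 on replicate 3. Tent5c had the same order but was 0.77 above wild type on replicate 1. The share of all probe sets with this order was not computed. With all arrays 0 of the 13 were called, and without mutant replicate 1, 8 were called higher, against 5.98% of all probe sets. The 13 early progenitor probe sets ranged from 6.88 to 6.93 in wild type and from 6.45 to 7.19 in mutant samples, those of 17 macrophage probe sets from 5.80 to 5.89 and from 5.28 to 5.85, and those of 10 T and NK cell probe sets from 4.78 to 4.82 and from 4.64 to 4.91. The part of these cells in the values of the maturation factors was not tested. In bulk RNA, fewer cells of a type and less of a transcript per cell cannot be told apart.

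**Figure D4:**
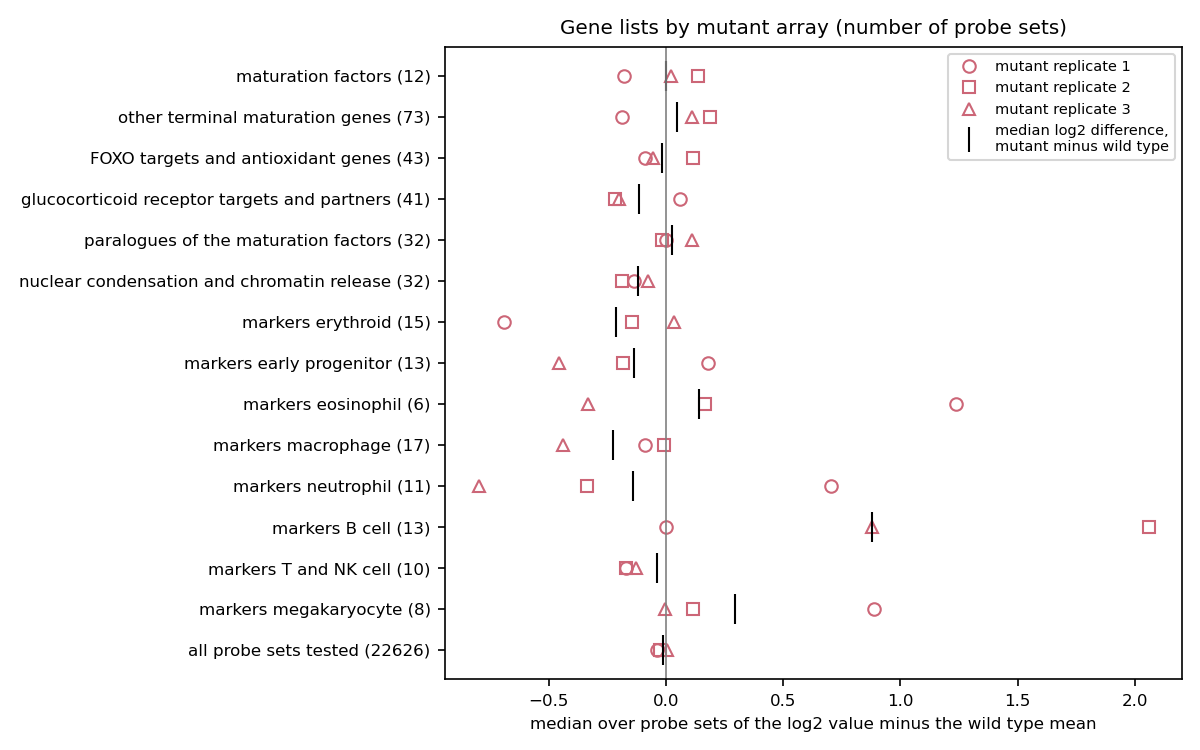
Median over the probe sets of each gene list of the log2 value minus the wild type mean (horizontal axis) on mutant replicates 1 (circles), 2 (squares) and 3 (triangles), with the median log2 difference as a black bar and the number of probe sets in parentheses. On replicate 1 the median of maturation factors is -0.18, that of erythroid markers -0.69 and that of neutrophil markers 0.70, while that of all probe sets tested is -0.04.

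Among 73 probe sets of 35 other genes of terminal maturation, 4 rose and 0 fell, against 2.33% of all probe sets called, with a median log2 difference of 0.05. The 4 were the 3 of Bpgm, at 1.15 ± 0.18, 1.18 ± 0.18 and 1.11 ± 0.20 (SE, adjusted p = 0.028, 0.028 and 0.039, limma), and 1 of the 5 of Mkrn1, a ubiquitin ligase gene, at 0.68 ± 0.13 (adjusted p = 0.045). All 4 calls were lost when any wild type array was left out (adjusted p = 0.15 to 0.24, limma), and those of Mkrn1 and of Bpgm probe set 1448119_at also without mutant replicate 2 or 3. Leaving out a wild type array kept only 36 to 48 of the 528 calls over all probe sets. When mutant replicate 1 was left out, 19 of the 73 were called higher and 2 lower, against 5.98% and 5.27% of all probe sets in that fit, and the median was 0.19.

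Genes that respond to FOXO factors or defend against oxidants were read by 43 probe sets of 22 genes, with a median of -0.02. Of the 43, 1 rose and 2 fell, against 0.941% and 1.39% of all probe sets. Pink1, a kinase that marks damaged mitochondria for removal, rose by 0.60 ± 0.12 (log2, SE, adjusted p = 0.049, limma), from 6.36 to 6.96. Txnip, which binds thioredoxin, fell by 0.63 ± 0.12 at the dimmer of its 2 probe sets (adjusted p = 0.044), while the brighter differed by 0.12 (adjusted p = 0.71). Pik3r1, a regulatory subunit of phosphoinositide 3-kinase, fell by 0.67 ± 0.12 at 1 of its 3 probe sets (adjusted p = 0.039). These calls were lost, as most of all calls were, without any 1 wild type array (adjusted p = 0.13 to 0.24, limma). They were also lost without mutant replicate 2 (0.087 to 0.12), and that of Txnip without mutant replicate 3 (0.055). In the fit without mutant replicate 1, 5 of the 43 were called higher and 5 lower, beside the same shares of all probe sets (5.98% and 5.27%).

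Targets and partners of the glucocorticoid receptor were read by 41 probe sets of 19 genes, and 0 passed (limma), against 2.33% of all probe sets. At an unadjusted p under 0.05 there were 9 (limma), against 19.1% of all probe sets. Of the 41, 31 were lower in the mutant, against 52.5% of all probe sets, and the median was -0.12. The lowest p was that of a dim probe set, 1 of 3, of Zfp36l2, an RNA-binding protein of progenitor self-renewal, at -0.51 ± 0.10 (SE, adjusted p = 0.056, limma). Next came the dimmer probe set of Kit, the stem cell factor receptor, at -0.72 ± 0.16 (adjusted p = 0.073). The brighter Kit probe set differed by -0.24 (adjusted p = 0.46), and the others of Zfp36l2 by -0.07 and -0.12 (adjusted p = 0.75 and 0.83). By array the median was 0.06 on mutant replicate 1 and -0.22 and -0.20 on replicates 2 and 3. With mutant replicate 1 left out, 8 of the 41 were called lower and 0 higher, against 5.27% and 5.98% of all probe sets, and the median was -0.22.

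Relatives of the maturation factors were read by 32 probe sets of 20 genes, of which 1 rose and 0 fell (median 0.03), against 2.33% of all probe sets called. Ypel5, of the Yippee-like family of Ypel4, rose by 0.59 ± 0.11 (log2, SE, adjusted p = 0.042, limma) at the dimmer of its 2 probe sets, from 6.49 to 7.09, while the brighter differed by 0.04 (adjusted p = 0.88). A dim probe set, 1 of 4, of Foxo1, the relative of Foxo3, differed by 1.06 ± 0.25 (adjusted p = 0.078), with 5.79, 6.53 and 5.45 in the mutant replicates. Of 32 probe sets of 14 genes of nuclear condensation and transport, 0 rose and 1 fell (median -0.12), against the same 2.33%. Ipo7, a nuclear import receptor, fell by 0.68 ± 0.09 (adjusted p = 0.019, limma), from 9.80 to 9.12. The acetyltransferase gene Kat2b differed at the dimmer of its 2 probe sets by -0.51 ± 0.13 (adjusted p = 0.0997), and at the brighter by 0.05 (adjusted p = 0.89). The calls of Ypel5 and Ipo7 were lost, as most of all calls were, without any 1 wild type array (adjusted p = 0.12 to 0.20, limma). They were also lost without mutant replicate 2 (0.11 and 0.058). Leaving out mutant replicate 1 gave 6 called higher and 0 lower among the relatives, and 1 higher and 2 lower in the nuclear list, with 5.98% of all probe sets higher and 5.27% lower in that fit.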

How the data were processed

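The deposited table holds RMA values on a log2 scale, which the authors made with GCOS and Affymetrix Expression Console, per the submitters' processing notes. RMA subtracts background, gives arrays processed together 1 distribution by quantile normalisation and combines the probes of each probe set. Whether all 6 arrays were processed together is not stated in the labels. No software version is named in the labels used here. The 64 control probe sets were left out, which left 22626. The platform annotation, dated 2016, gave 20380 of these 1 gene symbol, 691 several and 1555 none, and only the first were named. The groups were compared over all 22626 probe sets with limma 3.58.1 (R 4.3.3), using lmFit and eBayes without covariates and two-sided p-values. Adjustment was by Benjamini-Hochberg over all of them, with calls at an adjusted p under 0.05. The fit was also run on simulated data, and no outcome of that run is given here. It is therefore no evidence that the fit suits groups of unequal spread. On these arrays the mutant group had the larger spread, with a median SD per probe set of 0.1774 against 0.0896 for wild type.

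The members and gene lists were chosen with earlier results of these data known. The text names every member probe set, and from each other list the called probe sets (at most 6), or the 2 of lowest p where fewer were called. It also names the 5 probe sets nearest to the member of lowest p. Marker lists are given by their levels, and their 3 called probe sets (Tfrc, Slc4a1 and Vwf) and the eosinophil genes were named after their values were seen. Alternatives covered normalisation, dim probe sets, variance prior, array weights, the replicate number as a block, values per gene, each array left out, the threshold and a test without limma's shared variance. Gene list counts without mutant replicate 1 were added after seeing the data. The number of arrays limits the precision. Tables and promoter matches were made with pandas 2.3.3 under Python 3.11.15.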

Additional observations from a re-analysis of the deposited data

How the results depend on the processing

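The rise of Tent5c kept its direction in each of 16 alternatives, with a log2 difference of 0.91 to 1.24 and an adjusted p of 0.00098 to 0.16 (limma, and a test without shared variance). Of the 12 member probe sets, 1 was called in the main fit. The count was 2 at an adjusted p under 0.10 and 4 with array weights. It was 0 with 1 probe set per gene, with the mean of a gene's probe sets, without shared variance and with the replicate number as a block, where Tent5c had an adjusted p of 0.053, 0.055, 0.12 and 0.057. At an unadjusted p under 0.05 these settings gave 2, 3, 3 and 4. Leaving out 1 array at a time gave 0 to 5, with 0 for each wild type array (2 to 4 at an unadjusted p under 0.05, limma) and 5 without mutant replicate 1. Of all probe sets, 528 were called. The count was 1386 at an adjusted p under 0.10, 2667 with array weights, 41 with 1 probe set per gene, 47 with the mean per gene, 81 without shared variance and 112 with the replicate block. It was 39, 36 and 48 without wild type replicates 1, 2 and 3. Without mutant replicates 1, 2 and 3 it was 2544, 203 and 826.

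Same-numbered arrays deviated from their group means with correlations of 0.028 to 0.056, so the numbers were not taken to pair samples. Reversals concerned members that were not called with all arrays. Alox15 was -0.077 with array weights and ran from -0.14 (without mutant replicate 1) to 0.21 with 1 array left out, with -0.00051 without wild type replicate 1. The brightest Foxo3 probe set was 0.030 with array weights, 0.027 as the mean of its probe sets and ran from -0.16 to 0.11, the latter without mutant replicate 1. Nr3c1 probe set 1460303_at was 0.029 with array weights. Trim10 ran from -0.13 to 0.43 with 1 array left out, and was called at the latter, without mutant replicate 1. The cause was not tested. Of 176 alternative values of single probe sets, 153 kept their direction and side of the threshold. Alox15 and the dim Foxo3 and Nr3c1 probe sets lay below the median level of all probe sets and may be limited by low signal, which was not tested.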
